A study of Mus musculus with 12 samples.

Results

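The naive pluripotency transcription factors *Zfp42*, *Esrrb*, *Klf2*, *Klf4*, *Klf5*, *Tfcp2l1*, *Nr0b1* and *Nanog* were followed in mouse gastruloids, 8 of the 55141 genes with a read count. They were chosen by gene symbol, and each symbol matched a single Ensembl identifier. Gastruloids are aggregates of mouse embryonic stem cells (mESCs) that break symmetry, elongate and form an axis in culture. All groups shared the 129/svev mESC line, kept before aggregation in serum with LIF and 2 inhibitors, and the same start: 300 cells per well, 48 h of aggregation and a 24 h pulse of 3 µM of the Wnt agonist CHIR 99021 in N2B27 medium. The groups differed in when the gastruloids were embedded in a bioinert Dextran-PEG hydrogel and in how concentrated it was. Embedding was done either 72 h or 96 h after seeding, each with a gel of 1.0 mM or of 1.5 mM, which gave 4 groups of 3 biological replicates. All were released with dextranase and harvested at 120 h, so gastruloids embedded at 72 h had spent longer in the gel by then. Each library was bulk poly-A RNA from about 30 pooled gastruloids. In bulk RNA, fewer cells of a type and less RNA per cell cannot be told apart.

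The naive state is that of the pre-implantation epiblast and of mESCs held in LIF with inhibition of MEK and GSK3. LIF acts through STAT3 on *Klf4* and *Tfcp2l1*, and inhibition of GSK3 relieves repression of *Esrrb* by TCF7L1. These factors bind one another's regulatory regions together with OCT4 and SOX2, and are shut down as cells leave the naive state, as they do in the first days of a gastruloid. Several have a second life in later tissues, such as *Klf2* in endothelium and *Klf4* and *Klf5* in epithelia.

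In the 120 h gastruloids, *Zfp42*, *Esrrb* and *Nanog* were between 2.22 and 5.66 times lower after embedding at 72 h than at 96 h in both gels, and *Nr0b1* had 0 to 2 reads per library after embedding at 72 h. *Klf4*, *Klf5* and *Tfcp2l1* did not pass the test for embedding time in either gel, and *Klf2* passed it in 1.0 mM but not in 1.5 mM gels. Between gel concentrations 0 of the 8 passed edgeR's test over all libraries, without a replicate block and with low counts filtered. With a replicate block *Klf2* passed there (edgeR adjusted p = 0.00833), and *Klf2* and others passed in some of the other alternatives.

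Total counts ran from 23011791 to 27609422 per library. Of 8 markers of the labelled tissue, *T* lay between 69.2 and 290 and *Foxc1* between 132 and 273 CPM over the 12 libraries, while the presomitic mesoderm gene *Msgn1* had at most 3 reads in any library. The levels of the other markers are not given. Over both gels 7 of the 8 could be tested for embedding time. After embedding at 72 h, 2 passed edgeR's test as higher (16.2% of genes) and 3 as lower (14.8%). The CPM values are read counts scaled to a common library total, with totals adjusted by the trimmed mean of M values (TMM), and follow a gene from library to library.

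The bases upstream of the start sites are shown first, because the known cross-regulation of these factors runs through octamer motifs (bound by OCT4), composite OCT4 and SOX2 motifs and the G-rich boxes bound by Krüppel-like factors (KLF). RefSeq (GRCm38.p6) had windows for 7 of the 8 genes, and none was used for *Klf5*. *Zfp42* and *Nanog*, both lower after embedding at 72 h, are shown with *Esrrb* and *Nr0b1*, which were lower too, and with *Tfcp2l1*, which was not. Capitals mark matches to ATTTGCAT (octamer), TTTGCAT followed after any base by ACAATG (octamer core joined to a SOX motif) or GGGNGTGG (KLF box) on either strand, and each sequence reads 5′ to 3′ towards the gene.
Zfp42 (chr8:43307010-43307259, minus strand): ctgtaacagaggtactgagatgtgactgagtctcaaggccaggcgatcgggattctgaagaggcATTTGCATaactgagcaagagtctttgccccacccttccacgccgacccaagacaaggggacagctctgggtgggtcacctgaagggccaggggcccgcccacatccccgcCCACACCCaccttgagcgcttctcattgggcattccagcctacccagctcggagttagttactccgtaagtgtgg
Nanog (chr6:122707239-122707488, plus strand): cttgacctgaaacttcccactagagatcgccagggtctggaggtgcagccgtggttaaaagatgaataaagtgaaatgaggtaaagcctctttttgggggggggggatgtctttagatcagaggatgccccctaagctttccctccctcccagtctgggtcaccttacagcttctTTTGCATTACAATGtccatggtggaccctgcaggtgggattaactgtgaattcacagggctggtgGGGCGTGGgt
Tfcp2l1 (chr1:118627695-118627944, plus strand): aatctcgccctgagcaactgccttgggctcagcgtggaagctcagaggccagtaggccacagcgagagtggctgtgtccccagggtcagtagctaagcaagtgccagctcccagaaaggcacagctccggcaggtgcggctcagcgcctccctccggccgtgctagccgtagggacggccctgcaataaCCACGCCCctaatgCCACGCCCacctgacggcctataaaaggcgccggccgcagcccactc
Esrrb (chr12:86360867-86361116, plus strand): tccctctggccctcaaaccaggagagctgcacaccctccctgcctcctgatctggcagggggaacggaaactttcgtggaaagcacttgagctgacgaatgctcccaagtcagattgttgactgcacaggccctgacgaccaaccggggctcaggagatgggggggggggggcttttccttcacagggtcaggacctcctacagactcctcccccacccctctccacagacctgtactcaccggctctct
Nr0b1 (chrX:86191525-86191763, plus strand): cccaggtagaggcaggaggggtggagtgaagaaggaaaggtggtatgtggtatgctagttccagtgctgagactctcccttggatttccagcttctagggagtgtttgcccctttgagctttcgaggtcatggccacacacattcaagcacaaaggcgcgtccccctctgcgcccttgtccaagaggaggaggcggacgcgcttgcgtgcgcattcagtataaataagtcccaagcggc
The *Zfp42* window held an octamer from 186 to 179 bases before the start, and a KLF box read on the other strand from 75 to 68 bases before it. In *Nanog*, the octamer core and the SOX motif stood joined from 75 to 62 bases before the start, and a KLF box lay from 10 to 3 bases before it. *Tfcp2l1* held 2 KLF boxes, also on the other strand. Of all 32817 such windows of the annotation, 1.6% held the octamer, 4.13% its core, which lies within both longer motifs, and 15.9% a KLF box. In these exact letters the composite motif was found in 2 windows (0.00609%), both of them overlapping windows of *Nanog*. Looser spellings were not searched, so this share does not show how particular the motif is to *Nanog*. The second *Nanog* window, not shown, held a further KLF box from 52 to 45 bases before its own start. No match to these letters or to the nuclear receptor half-site AAGGTCA (4.08% of windows) was found in the windows of *Esrrb*, *Klf2*, *Klf4* and *Nr0b1*. Matches were thus seen in factors that were lower after embedding at 72 h and in *Tfcp2l1*, and a match is a description of the letters and not of a bound site.

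All 8 factors were present at low levels per transcript length. Over the 12 libraries, mean FPKM (fragments scaled to transcript length and library size, used here to compare genes with each other) was highest for *Klf2*, at 3.34, followed by *Klf4* (2.22), *Nanog* (1.96), *Zfp42* (1.47), *Klf5* (1.11), *Esrrb* (0.695), *Tfcp2l1* (0.188) and *Nr0b1* (0.176). Of the 16388 genes tested, 45.1% had a lower mean FPKM than *Klf2* and 13.6% a lower one than *Nr0b1*. *Pou5f1*, which encodes OCT4 and was picked here for comparison after its values were seen, lay between 7.35 and 28.9 FPKM.

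The order of the 8 factors differed between embedding times. In 1.0 mM gels and after embedding at 96 h, *Klf2* (5.87 ± 1.52 FPKM, SD, n = 3) stood above *Nanog* (3.53 ± 0.698), and the libraries of these neighbours did not overlap. *Nanog*, *Zfp42* (3.04 ± 0.783) and *Klf4* (2.68 ± 0.492) followed with overlapping neighbours. *Nr0b1* (0.409 ± 0.109) lay above *Tfcp2l1* (0.230 ± 0.0278). After embedding at 72 h in the same gels, *Klf2* (2.97 ± 0.866) and *Klf4* (2.54 ± 0.747) overlapped at the top, *Nanog* (0.889 ± 0.0222) lay below *Klf5* (1.11 ± 0.333) with overlapping libraries, and *Zfp42* (0.547 ± 0.178) below both. *Nr0b1* was then last, at 0.0243 ± 0.0210 FPKM, with a library listed at 0. In 1.5 mM gels *Klf4* (1.76 ± 0.0892) and *Klf2* (1.47 ± 0.745) led at 72 h with overlapping values, and *Nanog* (0.857 ± 0.280) overlapped both *Klf2* and *Klf5* (0.827 ± 0.239). *Klf2* (3.06 ± 0.842) and *Nanog* (2.55 ± 0.225) overlapped at the top at 96 h, above *Klf4* (1.93 ± 0.0405) and *Zfp42* (1.88 ± 0.0688), which overlapped each other. *Nr0b1* and *Tfcp2l1* changed places between embedding times in this gel too, without overlap.

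**Figure D1:**
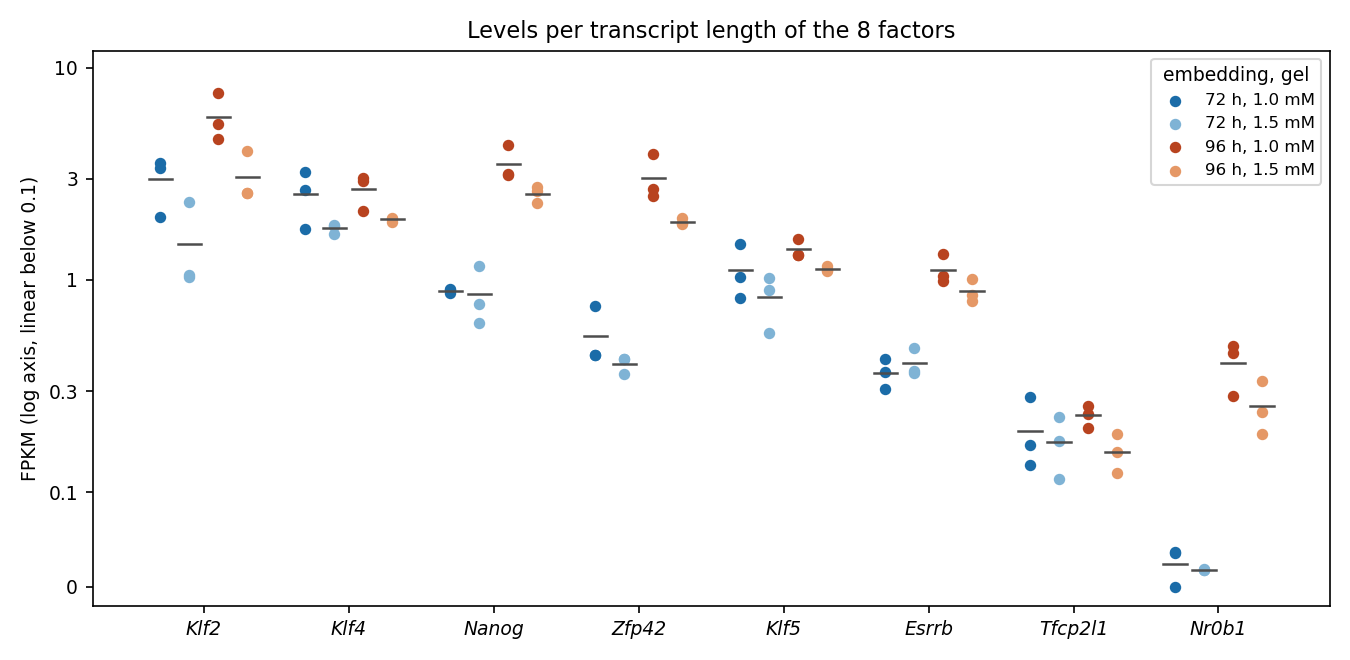
FPKM (log axis, linear below 0.1) of each library for the 8 factors, ordered from left to right by the mean over 12 libraries, with colours for the 4 groups and a bar at each group's mean. Nr0b1 ranges from 0 to 0.488 FPKM and Klf2 from 1.03 to 7.57, and the red and orange points of embedding at 96 h lie above the blue points of 72 h for Nanog, Zfp42, Esrrb and Nr0b1.

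The first question was whether these factors differed with the time of embedding. In 1.0 mM gels, 4 of the 8 factors were differentially expressed (DE, set at an adjusted p under 0.05 in edgeR's quasi-likelihood test and a log2 fold change beyond 1 in either direction), all lower after embedding at 72 h, where 1.69% of the 15763 genes tested were DE and lower. In 1.5 mM gels 4 of 8 were DE and lower, against 1.57% of 15683 genes. Counting every factor that passed the adjusted p whatever its fold, 5 were lower in 1.0 mM gels (3.27% of genes) and 4 in 1.5 mM gels (8.98% of genes). The 2 comparisons share no libraries, and the same 4 factors were DE in both. Their CPM did not overlap between embedding times in either gel. Counting all 8 factors, 5 did not overlap and were lower in 1.0 mM gels (13.8% of genes) and 6 in 1.5 mM gels (20% of genes). The median log2 fold change of the 8 factors was -1.27 in 1.0 mM and -1.09 in 1.5 mM gels, and that of all genes tested -0.0054 and -0.0052. The counts above include *Nr0b1*, which passed the filter on low counts only through the libraries embedded at 96 h, where it was higher. With a filter of 1 CPM in 3 libraries *Nr0b1* was not tested. Then 3 factors were DE in 1.0 mM gels (545 of 13930 genes in either direction) and 3 in 1.5 mM gels (367 of 13858).

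*Zfp42*, which encodes the zinc finger protein REX1 and serves as a reporter of the naive state, stood in 1.0 mM gels at 1.23, 1.76 and 1.04 CPM after embedding at 72 h and at 9.97, 6.70 and 6.29 CPM after embedding at 96 h. In 1.5 mM gels it stood at 0.98, 1.02 and 1.05 CPM at 72 h and at 4.99, 4.86 and 4.79 CPM at 96 h. The highest of the 6 early-embedded libraries thus lay below the lowest of the 6 late-embedded ones. After the earlier embedding *Zfp42* was 5.66-fold lower in 1.0 mM gels (-2.50 ± 0.261 as log2 fold change with its standard error, as given throughout, and adjusted p = 0.00027 by edgeR) and 4.78-fold lower in 1.5 mM gels (-2.26 ± 0.185, edgeR adjusted p = 0.000546). The gene lies on chromosome 8 (chr8:43295063-43306980, mm10, minus strand). Its pseudogene *Zfp42-ps1* held 0 to 24 reads per library, and adding these reads to those of *Zfp42* gave log2 fold changes of -2.61 and -2.22.

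*Nanog*, the homeodomain factor at the centre of the network, was at 2.59, 2.41 and 2.54 CPM after embedding at 72 h and at 11.77, 8.75 and 9.01 CPM after embedding at 96 h in 1.0 mM gels. In 1.5 mM gels the libraries held 3.69, 1.87 and 2.15 CPM at 72 h and 7.46, 7.83 and 6.50 CPM at 96 h. The groups were again apart, with the 1.0 mM libraries of 96 h all above 8 CPM. After the earlier embedding *Nanog* was 3.90-fold lower in 1.0 mM gels (log2 fold change -1.96 ± 0.180, edgeR adjusted p = 0.000134) and 2.84-fold lower in 1.5 mM gels (-1.504 ± 0.243, edgeR adjusted p = 0.00525). It lies at chr6:122707489-122714633 (mm10), and its pseudogenes *Nanog-ps1* and *Nanog-ps2* had 0 reads.

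*Esrrb*, an orphan nuclear receptor that can stand in for *Nanog* in mESC self-renewal, held in 1.0 mM gels 1.95, 1.67 and 2.33 CPM at 72 h, against 7.01, 5.30 and 5.63 CPM at 96 h. The values in 1.5 mM gels were 2.18, 1.96 and 2.51 CPM at 72 h against 5.51, 4.98 and 4.24 CPM at 96 h. All 6 libraries of the early embedding lay between 1.67 and 2.51 CPM, close together whichever gel was used. After the earlier embedding *Esrrb* was 3.00-fold lower in 1.0 mM gels (log2 fold change -1.58 ± 0.209, edgeR adjusted p = 0.00113) and 2.22-fold lower in 1.5 mM gels (-1.15 ± 0.189, edgeR adjusted p = 0.00549). It spans chr12:86361117-86521628 (mm10).

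*Nr0b1*, which encodes the orphan receptor DAX1, a partner of OCT4 and target of STAT3 in mESCs, was near the limit of detection. Read counts were 2, 0 and 2 at 72 h and 30, 26 and 18 at 96 h in 1.0 mM gels, and 1, 1 and 1 against 21, 15 and 11 in 1.5 mM gels. With so few reads the fitted log2 fold changes (-3.97 ± 0.599, adjusted p = 0.00226, and -3.67 ± 0.555, adjusted p = 0.00422, edgeR) depend on the prior count. From the summed reads of each group, 74 against 4 and 47 against 3, the level at 96 h was 17.1 times that at 72 h in 1.0 mM gels (exact 95% interval 6.39 to 64.3) and 14.1 times in 1.5 mM gels (4.54 to 70.9), where the intervals cover counting error only. The gene lies on the X chromosome (chrX:86191764-86195947, mm10).

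**Figure D2:**
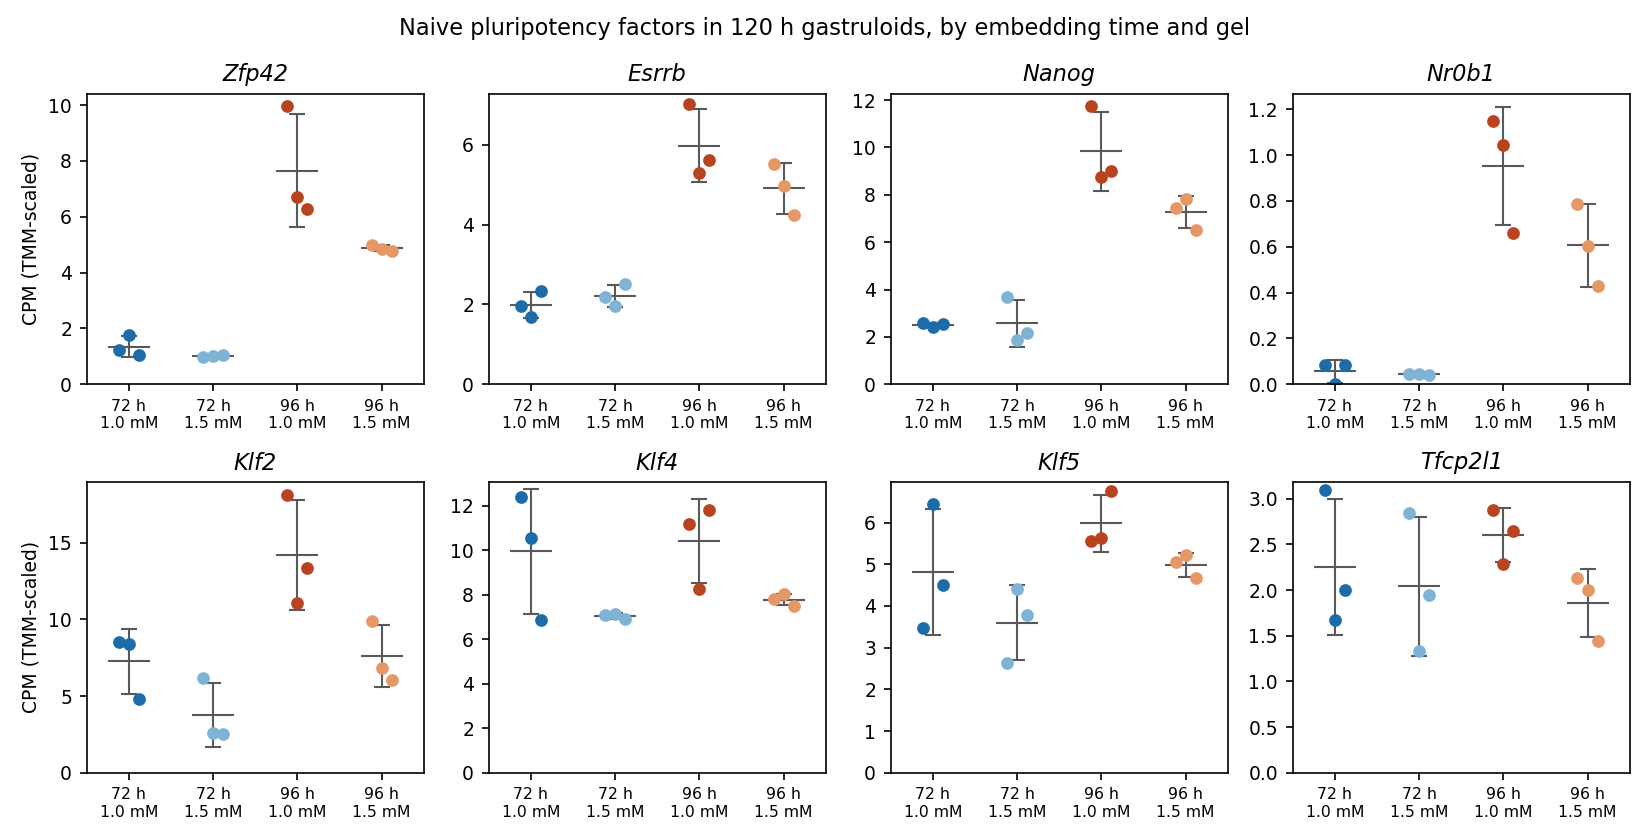
CPM on TMM-scaled totals of each library (points) for the 8 factors in the 4 groups of embedding time and gel concentration, with the mean and SD of the 3 replicates. In the upper row (Zfp42, Esrrb, Nanog, Nr0b1) every library embedded at 72 h lies below every library embedded at 96 h, while in the lower row the embedding times overlap over the 12 libraries.

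The 3 Krüppel-like factors among the 8, zinc finger proteins that substitute for each other in holding the naive state, differed in their calls. In 1.0 mM gels *Klf2* was at 8.52, 8.41 and 4.83 CPM after embedding at 72 h and 18.13, 11.08 and 13.35 CPM after embedding at 96 h. It was lower after the earlier embedding with a log2 fold change of -0.96 ± 0.232 (edgeR adjusted p = 0.0245), just short of the fold set for DE. Its 1.5 mM libraries held 6.17, 2.58 and 2.51 CPM against 9.90, 6.82 and 6.07 CPM, a log2 difference of -1.02 ± 0.342 that did not pass (edgeR adjusted p = 0.0633). Replicate 1 of the 72 h, 1.5 mM group was the high one, and without it the difference was -1.58 (edgeR adjusted p = 0.00156). In 1.0 mM gels the call was lost without replicate 3 embedded at 72 h (-0.74, adjusted p = 0.0518) and without replicate 1 (-0.75, adjusted p = 0.101) or replicate 3 (-1.01, adjusted p = 0.0625) embedded at 96 h. The call for *Klf2* on embedding time within a single gel thus turned on single libraries.

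*Klf4*, a direct target of STAT3 and one of the reprogramming factors, was at 12.42, 10.58 and 6.87 CPM at 72 h and 11.19, 8.27 and 11.80 CPM at 96 h in 1.0 mM gels, and at 7.11, 7.12 and 6.89 CPM against 7.80, 8.03 and 7.52 CPM in 1.5 mM gels. Its log2 difference between embedding times was -0.06 (95% interval -0.53 to 0.41) and -0.15 (-0.42 to 0.12). These intervals leave out the fold set for DE in both gels. *Klf5*, which acts in the trophectoderm and the epiblast, was at 3.48, 6.45 and 4.50 CPM against 5.56, 5.62 and 6.76 CPM in 1.0 mM gels, and at 2.62, 4.41 and 3.77 CPM against 5.06, 5.22 and 4.67 CPM in 1.5 mM gels. The embedding times overlapped in the first and not in the second, with log2 differences of -0.31 (-0.80 to 0.18) and -0.47 (-0.93 to -0.02) that did not pass (edgeR adjusted p = 0.457 and 0.126).

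*Tfcp2l1*, a CP2-family factor downstream of STAT3, overlapped between embedding times. It was at 3.09, 1.67 and 2.00 CPM at 72 h and 2.87, 2.29 and 2.65 CPM at 96 h in 1.0 mM gels, and at 2.84, 1.34 and 1.95 CPM against 2.14, 2.01 and 1.44 CPM in 1.5 mM gels. The order of the groups differed between gels, with log2 differences of -0.20 (95% interval -0.78 to 0.37) and 0.13 (-0.55 to 0.81). It lies at chr1:118627945-118685168, *Klf2* at chr8:72319033-72321656, *Klf4* at chr4:55527143-55532466 and *Klf5* at chr14:99298691-99315036 (mm10). The 3 short genes that overlap *Tfcp2l1* had 0 reads, and none of the other 7 factors overlaps an annotated gene.

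With gel concentration held in a fit over all 12 libraries, the same 4 factors were DE and lower after embedding at 72 h (2.29% of 16388 genes), and *Klf2* passed without reaching the fold for DE. At 1 CPM in 3 libraries, where *Nr0b1* was not tested, 3 factors were DE (519 of 14301 genes in either direction). *Zfp42* was 1.18 ± 0.295 CPM at 72 h and 6.26 ± 1.98 CPM at 96 h (SD, n = 6), *Nanog* 2.54 ± 0.622 and 8.55 ± 1.82 CPM, and *Esrrb* 2.10 ± 0.301 and 5.45 ± 0.914 CPM. The log2 fold change of *Klf2* was -0.99 ± 0.220 (edgeR adjusted p = 0.00356). *Klf5* did not pass at -0.39 ± 0.154 (edgeR adjusted p = 0.0668), but lay close to the threshold. It passed with DESeq2 (adjusted p = 0.0491), with limma-voom (0.0481), with no filter on low counts (0.0422) and without replicate 2 of the 72 h, 1.0 mM group (-0.52, edgeR adjusted p = 0.0102).

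The second question was whether these factors differed with gel concentration. Between 1.5 mM and 1.0 mM gels after embedding at 72 h, 0 of the 7 factors tested passed edgeR's test, as did 0% of 15563 genes (2 of the 7 and 1074 of all genes had an unadjusted p below 0.05, and DESeq2 and limma-voom called 0). *Nr0b1* had too few reads for this comparison. With a replicate block, 0 of the factors and 43 of all genes passed. The largest differences were *Klf2*, at -0.95 on the log2 scale (95% interval -1.74 to -0.17), and *Klf4*, at -0.50 (-0.96 to -0.04). For *Nanog* (0.03, -0.58 to 0.64) and *Esrrb* (0.16, -0.37 to 0.69) the intervals ran to both sides of 0, and all 8 factors overlapped between the gels (lower without overlap, 5.11% of genes).

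After embedding at 96 h, all 8 factors had a lower estimate in 1.5 mM than in 1.0 mM gels, and 0 of 8 passed edgeR's test without a replicate block, as did 0% of 15861 genes. An unadjusted p below 0.05 was found for 4 of the 8 and for 1578 of all genes, and DESeq2 called 1 (*Klf2*) and limma-voom 0. With a replicate block, *Klf2* (edgeR adjusted p = 0.000362) and *Zfp42* (edgeR adjusted p = 0.0458) passed, as 2 of 289 genes that did. In 6 of 8 factors (*Zfp42*, *Klf2*, *Klf4*, *Klf5*, *Tfcp2l1* and *Nanog*) every library of the 1.5 mM gels lay below every library of the 1.0 mM gels, against 8.08% of all genes. *Zfp42*, for one, was between 4.79 and 4.99 CPM in 1.5 mM gels and between 6.29 and 9.97 CPM in 1.0 mM gels. The estimates were -0.90 for *Klf2* (95% interval -1.34 to -0.45, adjusted p = 0.189), -0.65 for *Zfp42* (-1.05 to -0.25, adjusted p = 0.299), -0.44 for *Nanog* (-0.76 to -0.11, adjusted p = 0.38) and -0.42 for *Klf4* (-0.74 to -0.10, adjusted p = 0.391), and the median of the 8 was -0.46 against -0.0047 over all genes. These libraries of 1.0 mM gels also serve in the comparison of embedding times, so the 2 sets of differences are not independent.

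Over both embedding times 0 of 8 factors passed edgeR's test between gels (0.0305% of 16388 genes did, and 4 of the 8 and 2075 of all genes had an unadjusted p below 0.05). DESeq2 called *Klf2* and *Klf4*, and limma-voom called 0. With a replicate block, *Klf2* passed (edgeR adjusted p = 0.00833), as 1 of 81 genes that did. *Klf2* was the factor with the lowest estimate, at 5.68 CPM on average in 1.5 mM gels and 10.7 CPM in 1.0 mM gels (log2 difference -0.92, 95% interval -1.39 to -0.46, edgeR adjusted p = 0.135). Without replicate 1 of the 72 h, 1.5 mM group it was -1.13 (edgeR adjusted p = 0.0327). For *Esrrb* the interval was narrow and spanned 0 (-0.09, -0.39 to 0.21).

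The difference between embedding times was itself compared between gels, as an interaction over all 12 libraries. For 0 of 8 factors did it pass edgeR's test (0% of 16388 genes, 0 of the 8 and 708 of all genes at an unadjusted p below 0.05, and 0 by DESeq2 and limma-voom). The estimates for *Nanog* (0.47, 95% interval -0.19 to 1.12) and *Esrrb* (0.45, -0.13 to 1.02) lay above 0, which is the side of a smaller difference in 1.5 mM gels. For *Nr0b1* the interval was too wide to read (-2.36 to 2.98).

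**Figure D3:**
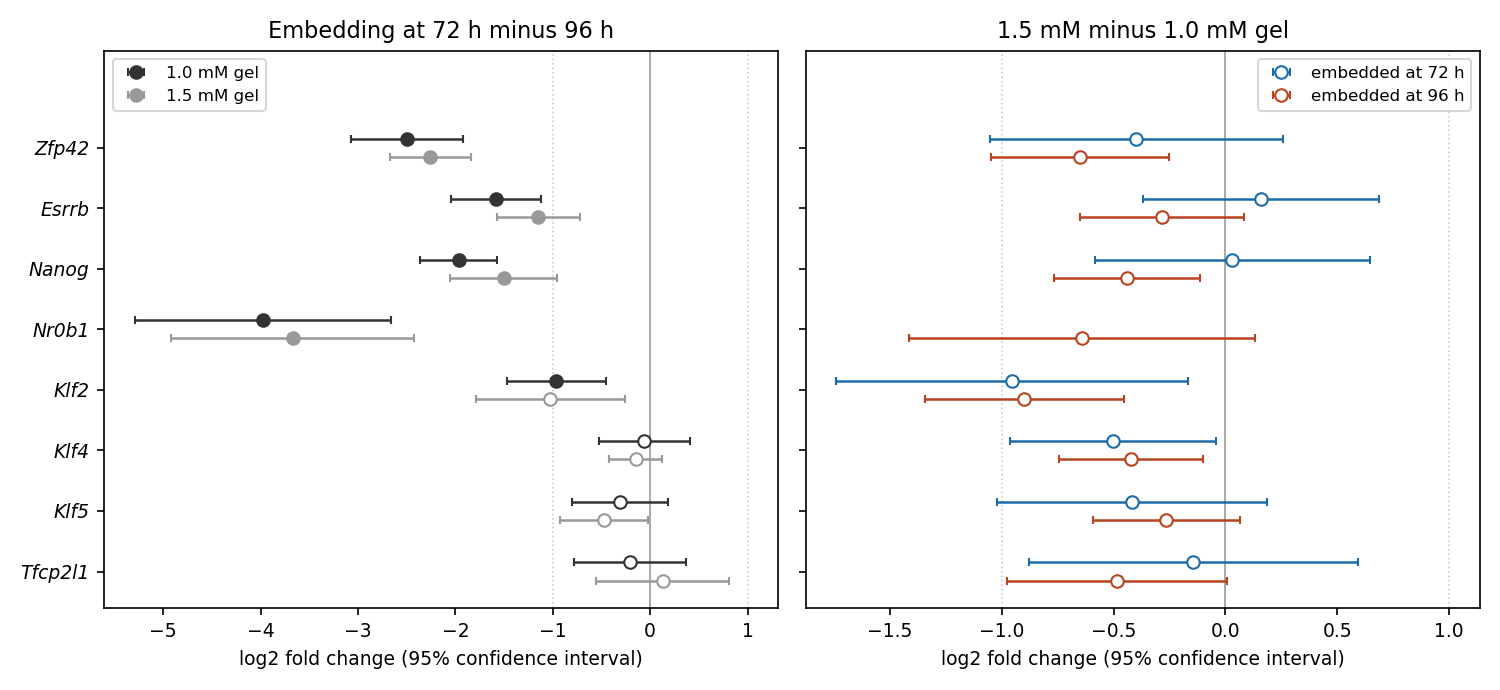
Log2 fold changes of the 8 factors with 95% confidence intervals, for embedding at 72 h minus 96 h in each gel (left) and for 1.5 mM minus 1.0 mM gels at each embedding time (right), with dotted lines at -1 and 1 and filled points for an adjusted p below 0.05. The filled points are Zfp42, Esrrb, Nanog and Nr0b1 in both gels and Klf2 in 1.0 mM gels, and none lies on the right, where Nr0b1 after embedding at 72 h was not tested.

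Other genes of the naive and core network were looked at as a list of 15, over both gels. Of these, 11 passed and were lower after embedding at 72 h and 2 passed and were higher, with a median log2 fold change of -1.69 against -1.18 for the 8 factors and -0.0072 for all genes (14.8% of genes passed and were lower, 16.2% higher). The largest falls were those of *Dppa2* (-2.99 ± 0.245), a chromatin factor that primes bivalent genes, *Tdh* (-2.94 ± 0.185), the threonine dehydrogenase on which mESCs depend, *Dppa3* (-2.67 ± 0.446), which guards maternal methylation, and *Dppa5a* (-2.60 ± 0.115), an RNA-binding protein of pluripotent cells. *Dppa2* had at most 9 reads and *Dppa3* at most 5 reads in any library embedded at 72 h. *Sall4* (0.36 ± 0.0431) and *Tdgf1* (0.74 ± 0.248), named after their values were seen, were the 2 that were higher. The list shares no gene with the 8 factors. It was, however, chosen with earlier results of these data known, so it is a description and not separate support.

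The signalling arms that feed the naive factors were read in the same way. Of 10 genes of the LIF-STAT3 and GSK3-TCF arms, 0 passed as lower and 3 passed as higher after embedding at 72 h, namely *Il6st* (0.46 ± 0.0673), the shared receptor subunit of LIF signalling, the kinase *Jak1* (0.32 ± 0.0483) and *Gsk3b* (0.24 ± 0.0852). The median of the 10 was 0.04, and over all genes 14.8% passed as lower and 16.2% as higher. *Lif* itself, named after its values were seen, had between 2 and 19 reads per library.

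Genes of the formative and primed epiblast, the states that follow the naive one, were mixed. Of 11, 4 passed as lower after embedding at 72 h (14.8% of genes) and 1 as higher (16.2% of genes), with a median of 0.03. *Foxd3* (-1.91 ± 0.296), a forkhead factor of the exit from naive pluripotency, stood apart from *Pou3f1* (-0.47 ± 0.155), *Zic2* (-0.38 ± 0.123), *Lef1* (-0.15 ± 0.0543) and the methyltransferase *Dnmt3b* (0.20 ± 0.0539). *Foxd3* was the one of the 5 with a fold large enough for DE.

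Of the other Krüppel-like factors, 12 of 14 could be tested, and none passed as lower after embedding at 72 h (14.8% of genes did, and 16.2% passed as higher). The 5 that passed were higher, namely *Klf12* (0.74 ± 0.119), *Klf8* (0.61 ± 0.101), *Klf7* (0.51 ± 0.0906), *Klf13* (0.49 ± 0.0909) and *Klf6* (0.37 ± 0.103). *Klf17*, a factor of human naive cells, had 0 reads.

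Primordial germ cells express several naive factors, so their markers were set beside these results. Of the 8 germ cell genes tested, 3 passed as lower after embedding at 72 h (*Dppa3*, *Prdm14* and *Tfap2c*) and 1 as higher (*Prdm1*, 0.76 ± 0.111). Over all genes these shares were 14.8% and 16.2%. Over both gels the log2 fold change of *Tfap2c* was -1.63 ± 0.155. In 1.0 mM gels *Tfap2c* lay between 4.01 and 5.44 CPM after embedding at 96 h and between 0.916 and 1.63 CPM after embedding at 72 h. *Prdm14*, which with *Dppa3* also stands in the naive list, held 1 to 8 reads at 72 h and 7 to 25 reads at 96 h. The late germ cell genes *Ddx4* and *Dazl* were near 0 in every group, at most 1.15 and 0.525 CPM. The summed level of the germ cell list ran from 110 to 157 CPM at 72 h and from 102.1 to 122 CPM at 96 h, a sum in which *Prdm1* (35.8 to 96.4 CPM) and *Kit* (42.1 to 68.7 CPM) had large parts. Other cell types express both. The part of germ cells in the values of *Zfp42*, *Nanog* and *Esrrb* was not tested.

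Markers of other tissues were also read, including those in which *Klf2*, *Klf4* and *Klf5* are known. Over all genes, 14.8% passed as lower and 16.2% as higher after embedding at 72 h. Of 12 endothelial markers, 6 passed as lower after embedding at 72 h (led by *Cldn5*, -2.14 ± 0.181, and *Emcn*, -1.33 ± 0.239) and 3 as higher, and the summed level ran from 355 to 547 CPM at 72 h and from 427 to 582 CPM at 96 h. After embedding at 96 h, all 12 had a higher estimate in 1.5 mM than in 1.0 mM gels, as had 7712 of 15861 genes, and 0 of them passed. That of *Klf2* was lower there. After embedding at 72 h, 6 of the 12 had a higher estimate and 6 a lower one, and over both embedding times 9 and 3, with 0 passing. Of 13 gut and epithelial markers, 5 passed as higher after embedding at 72 h (led by *Shh*, 1.41 ± 0.125) and 2 as lower, with sums of 597 to 921 CPM at 72 h and 510 to 718 CPM at 96 h. In 1.5 mM gels all 13 had a lower estimate than in 1.0 mM gels over both embedding times, and 0 of them passed. A lower estimate was also found for *Klf4*, for *Klf5* and for 8402 of 16388 genes. Of 11 genes tested from a list of trophectoderm and primitive endoderm markers, 7 passed as higher after embedding at 72 h (led by *Ttr*, 2.01 ± 0.520, and *Gata4*, 1.95 ± 0.285) and 1 as lower. The sums were 626 to 797 CPM at 72 h and 480 to 634 CPM at 96 h. The trophectoderm gene *Elf5* had at most 3 reads, and *Sox7* stands in the endothelial list too. Whether trophectoderm or primitive endoderm cells were present was not tested. The part of these cell types in the factors' values was not tested.

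**Figure D4:**
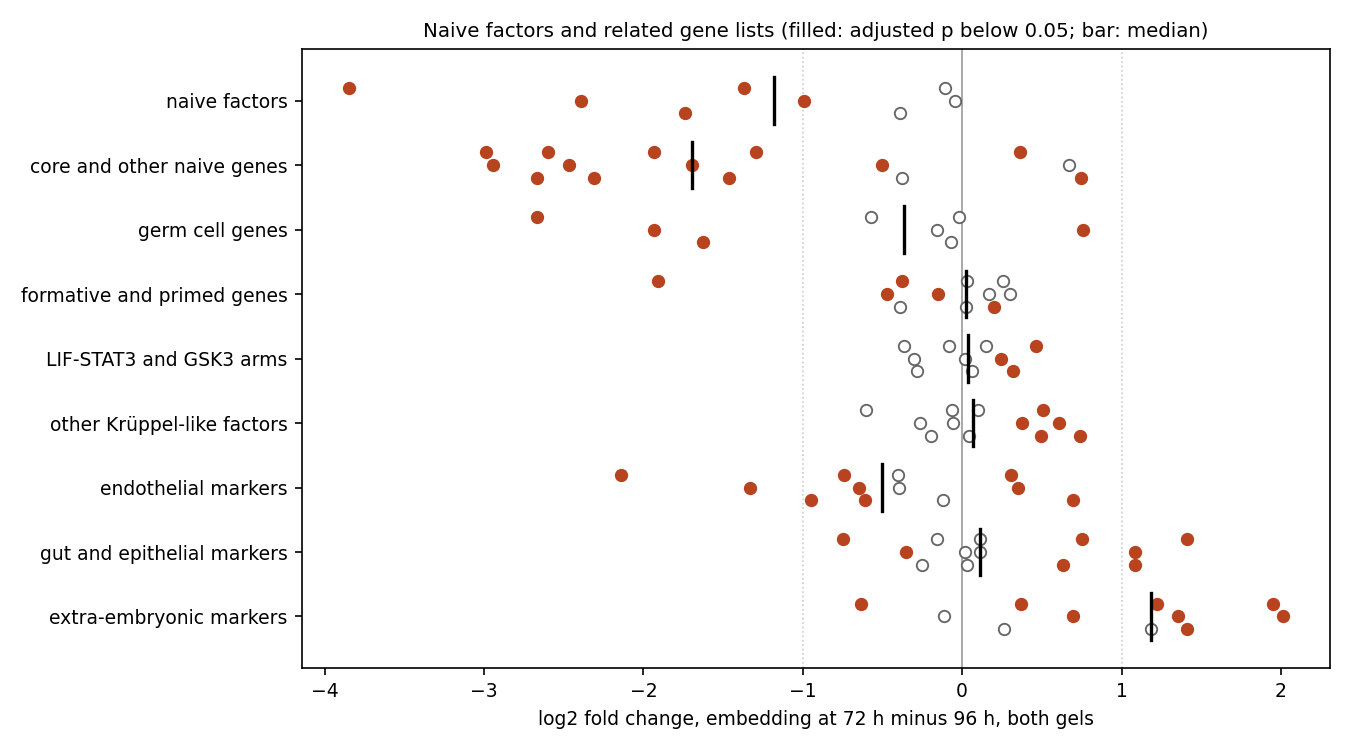
Log2 fold change between embedding at 72 h and 96 h over both gels for each tested gene of 9 lists (points), filled where the adjusted p is below 0.05, with a bar at each list's median and dotted lines at -1 and 1. The 8 naive factors (median -1.18) and the 15 core and other naive genes (median -1.69) lie mostly to the left, while the genes of the LIF-STAT3 and GSK3 arms and the other Krüppel-like factors stay within 1 of 0.

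Across the 12 libraries, the genes whose log2 CPM followed each factor most closely (Pearson's r, among 13805 genes with a mean of at least 1 CPM) gave a further description of how the factors parted. For *Zfp42* they were *Dppa5a* (0.990), *Tfap2c* (0.989) and *Dppa4* (0.983), and for *Nanog* *Tdh* (0.969), *Dnah8* (0.964) and *Dppa5a* (0.961). *Esrrb* went with *Lefty2* (0.982), *Hoxd4* (0.973) and *Scube3* (0.971). Since the libraries fall into the groups of embedding time, these values carry that difference too. *Klf2* had *Car11* (0.965), *Snapin* (0.943) and *Gm41609* (0.938), *Klf4* had *Alg13* (0.913), *Fosb* (0.861) and *Tpcn2* (0.847), *Klf5* had *Nav3* (0.903), *4930577N17Rik* (0.881) and *Rfx1* (0.879), and *Tfcp2l1* had *Nfya* (0.927), *Pdk1* (0.914) and *Mxi1* (0.895). No gene was among the closest 3 of both *Zfp42* or *Nanog* and any of the Krüppel-like factors, and *Nr0b1* was below the level set for this reading.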

How the data were processed

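Bulk RNA-seq libraries of 4 groups with 3 biological replicates each were used. The authors trimmed reads (cutadapt 4.4), aligned them with STAR 2.7.10b to mm10 using a custom Ensembl annotation, and deposited unnormalized counts for each gene. The strand setting of the counting is not given in the sources used here. The authors also deposited FPKM values (Cufflinks 2.2.1.3), which served here to compare genes with each other. A table of the authors' log2 fold changes and p-values was not used.

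Counts of all genes except 36 mitochondrial ones were filtered (filterByExpr, minimum count 10, minimum total 15), TMM-normalized and tested with edgeR 4.0.16 (glmQLFit, glmQLFTest, R 4.3.3), with Benjamini-Hochberg adjustment over all genes tested. The script was tested on simulated data. SE is the absolute log2 fold change divided by the root of F. Pairwise comparisons used 6 libraries, the others 12. Alternatives were DESeq2 1.42.0, limma-voom (limma 3.58.1), RLE and upper quartile normalization, other filters, mitochondrial genes kept, all libraries in one fit, no fold threshold, a replicate block, each library left out and, chosen after seeing the data, *Zfp42-ps1* reads added to *Zfp42*. The intervals of the *Nr0b1* ratios are exact binomial ones.

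The members and lists were chosen with earlier results of these data known. Named genes are the 8 factors, genes of the other lists that passed (for lists with more than 6, the 4 with the largest change over both gels) and the 3 genes most correlated with each factor of at least 1 CPM. Genes outside this rule (*Pou5f1*, *Sall4*, *Tdgf1*, *Lif*, *Klf17*, *Kit*, *Ddx4*, *Dazl*, *Elf5* and the tissue markers *T*, *Foxc1* and *Msgn1*) were named after their values were seen. Libraries of a group differed beyond sampling noise. Promoter windows were the 250 bases before RefSeq starts. The first window of each factor was cut where its annotated gene begins, and the second windows of *Nanog* and *Esrrb* were not cut.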

Additional observations from a re-analysis of the deposited data

How the results depend on the processing

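*Zfp42*, *Esrrb*, *Nanog* and *Nr0b1* were lower after embedding at 72 h and DE in both gels, and over both, in each alternative that gave them a value. The count of DE factors stayed between 3 and 5 in these comparisons. *Nr0b1* could not be tested at 1 CPM in 3 libraries, and DESeq2 gave it no adjusted p in 1.5 mM gels or between gels. *Klf2* on embedding time in 1.0 mM gels was also lost with all 12 libraries in one fit (adjusted p = 0.0596), while in 1.5 mM gels it passed with DESeq2 (0.00859), limma-voom (0.0386), no filter and all libraries in one fit (0.0475). Between gels at 96 h *Klf2* passed with DESeq2 (adjusted p = 0.00281). With no filter on low counts *Klf2* also passed between gels at 72 h (0.0017), at 96 h and over both times, *Zfp42* at 96 h (0.0145) and over both times (0.0489), and *Klf4* over both times (0.00943). The count of DE factors between gels over both embedding times was 1 without replicate 1 of the 72 h, 1.5 mM group (*Klf2*), and 0 with each of the other 11 libraries left out.

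Replicate numbers were not taken to pair samples in the main tests. The 18 correlations of same-numbered libraries ran from 0.0365 to 0.313, with a median of 0.156. Of these, 13 were over 0.1 and 5 below it, at least 1 of the 5 in each pairwise comparison. All 6 libraries correlated best with their own number in the comparisons in 1.5 mM gels and at 72 h, and 5 of 6 in the others. Whether same-numbered libraries shared a batch was not tested, so results with and without the block are both given. With the replicate block, 757 genes were DE between embedding times in 1.0 mM gels (678 without it), 543 in 1.5 mM gels (498), 16 between gels at 72 h and 51 at 96 h (0 and 0). *Klf5* then passed on embedding time over both gels (adjusted p = 0.025). *Klf2* then passed in 1.5 mM gels (adjusted p = 0.00458), between gels at 96 h (0.000362) and over both times (0.00833), and *Zfp42* between gels at 96 h (0.0458), with 4, 5, 0 and 0 DE factors in the 4 pairwise comparisons.

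Small differences changed sign. That of *Nanog* between gels at 72 h was -0.0347 with limma-voom and -0.0145 with the replicate block, and -0.33 to 0.21 with a library left out. On leaving out a library, log2 differences ran from -0.25 to 0.15 for *Klf4* between embedding times in 1.0 mM gels, and for *Tfcp2l1* from -0.18 to 0.36 in 1.5 mM gels, from -0.200 to 0.0564 over both gels and from -0.46 to 0.15 between gels at 72 h. That of *Esrrb* between gels over both times ran from -0.16 to 0.0014. The interaction ran from -0.63 to 0.18 for *Klf2*, -0.30 to 0.11 for *Klf4*, -0.34 to 0.11 for *Klf5* and -0.25 to 0.70 for *Nr0b1*. None of these differences passed a test, and the cause was not tested. At 0 to 2 reads per library after embedding at 72 h, *Nr0b1* could not be tested between gels there.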
